A study of Mus musculus with 4 samples.

Results

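The proliferation and mitosis genes are a list of 40 genes that dividing cells switch on to copy their DNA and separate their chromosomes. Members were matched by gene symbol, and the list was drawn up with earlier results of these data known. Of these, 39 were measured among 18194 genes in all, and cyclin B1 (Ccnb1) was not analysed here. Where a gene had several probe sets (groups of short probes for 1 transcript), the one with the highest mean log2 signal over the 4 arrays stood for it.

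RNA came from the epididymal fat pad of C57Bl/6J mice, which lies along the epididymis. The high-calcium diet was a high-fat diet with 1.8% calcium and whey protein isolate, represented by 2 high-calcium arrays. The standard diet was a high-fat diet with 0.4% calcium, represented by 1 array, and 60% of its energy came from fat. Since calcium and whey protein were changed together, their parts in any difference cannot be told apart. Mice started the diets at 9 weeks of age, 10 to a diet, and were fed for 21 weeks before 2 mice per diet were profiled on Affymetrix arrays. The diet of the remaining array could not be settled from its labels, because its title names no diet and shares its words with the series title. The labels speak of 2 profiled mice per diet, which would leave the standard diet for it, but its source name has the wording of that of high-calcium replicate 2. It is called the array of open diet, entered no comparison between diets, and is shown by its own values. Precision is limited by the number of arrays: the only measure of spread came from the 2 high-calcium arrays.

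A dividing cell first licenses its replication origins, loading the Mcm helicase with the help of Cdc6, and raises its supply of deoxynucleotides. Cyclin E and cyclin A with their kinases drive the copying of DNA, and cyclin B with Cdk1 drives entry into mitosis. Mature fat cells do not divide. In obese mice the dividing cells of fat are known to include adipocyte precursors, endothelial cells, and macrophages that multiply inside the epididymal pad.

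Transcription of these genes is known to be timed by E2F factors, which act on genes of DNA synthesis, and by the DREAM and MuvB complexes, which act on genes of mitosis through an element called CHR. NF-Y acts on many of both through the CCAAT box. RefSeq promoter windows of build GRCm38.p6, from 250 bases before to 50 bases after the transcription start, were found for 33 of the 40 listed genes. They were searched on both strands for CCAAT, for the CHR word TTTGAA and for the E2F words TTTGGCGC, TTTCCCGC and TTTCGCGC. A CCAAT word stood in 26 of 33 members (78.8%) and in 41.1% of all 27025 genes with a window. The CHR word stood in 16 of 33 members (48.5%), against 20.2% of all genes. An E2F word stood in 6 of 33 members (18.2%), against 2.12% of all genes. All 16 members with the CHR word also had a CCAAT word, and in 2 places words of different kinds overlapped. The E2F words stood in 5 of the 8 genes of licensing and DNA synthesis with a window and in 1 of the 25 other members, Cdk1. The CHR word stood in 2 of those 8 genes and in 14 of the 25 others. A match is a run of letters and not a shown binding site.

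The windows below are those of members on which the array results turn: Ccnb2, which had the widest spread over the arrays among members above background, Cdk1, which hardly differed between the diets, and 3 genes with some of the larger differences of 1 sign on both high-calcium arrays. They are written 5′ to 3′ on the strand of the gene, and capitals mark the CCAAT, CHR and E2F words on either strand.
Ccnb2, chr9:70421505-70421804, minus strand: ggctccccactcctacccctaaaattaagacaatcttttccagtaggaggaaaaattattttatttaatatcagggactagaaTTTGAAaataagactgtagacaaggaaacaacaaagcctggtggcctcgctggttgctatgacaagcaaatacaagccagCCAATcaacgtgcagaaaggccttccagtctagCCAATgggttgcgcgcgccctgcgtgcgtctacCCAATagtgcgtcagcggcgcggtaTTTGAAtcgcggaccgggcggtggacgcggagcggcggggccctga
Cdk1, chr10:69352863-69353162, minus strand: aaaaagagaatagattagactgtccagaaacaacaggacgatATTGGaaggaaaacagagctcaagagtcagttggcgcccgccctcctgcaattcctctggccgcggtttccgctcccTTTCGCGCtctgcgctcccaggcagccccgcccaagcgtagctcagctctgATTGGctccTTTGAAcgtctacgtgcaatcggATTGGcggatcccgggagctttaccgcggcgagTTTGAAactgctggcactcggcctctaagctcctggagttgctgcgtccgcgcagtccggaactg
Top2a, chr11:99024140-99024439, minus strand: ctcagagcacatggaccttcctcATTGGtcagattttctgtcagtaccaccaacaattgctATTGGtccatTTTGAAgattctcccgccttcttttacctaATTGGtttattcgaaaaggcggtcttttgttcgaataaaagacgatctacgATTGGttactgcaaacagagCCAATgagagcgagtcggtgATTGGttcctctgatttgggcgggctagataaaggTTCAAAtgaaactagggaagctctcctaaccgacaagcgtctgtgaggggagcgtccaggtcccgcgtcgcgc
Mcm2, chr6:88898731-88899030, minus strand: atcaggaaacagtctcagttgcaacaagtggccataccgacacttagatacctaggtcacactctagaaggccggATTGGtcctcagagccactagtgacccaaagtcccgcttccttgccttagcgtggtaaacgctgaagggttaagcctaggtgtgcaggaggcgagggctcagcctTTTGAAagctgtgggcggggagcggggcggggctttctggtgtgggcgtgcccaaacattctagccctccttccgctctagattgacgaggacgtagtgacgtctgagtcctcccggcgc
Mcm3, chr1:20820263-20820562, minus strand: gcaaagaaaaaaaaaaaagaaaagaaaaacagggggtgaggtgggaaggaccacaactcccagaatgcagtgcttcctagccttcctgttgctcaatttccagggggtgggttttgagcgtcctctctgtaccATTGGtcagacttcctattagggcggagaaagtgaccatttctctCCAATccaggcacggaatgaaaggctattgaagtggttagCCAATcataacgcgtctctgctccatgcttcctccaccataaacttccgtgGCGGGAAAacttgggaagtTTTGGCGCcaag
In Ccnb2 the CCAAT words began at positions -87, -54 and -21 relative to the start and the CHR words at -167 and 4. Top2a held 6 CCAAT words and 2 CHR words, and of these 5 genes Mcm3 and Cdk1 held an E2F word.

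The median signal of an array served as its background level. On all 4 arrays 29 of 39 members lay above it, or 74.4%, against 57.5% of all genes. All 5 measured adipocyte markers were above background on every array. High-calcium replicate 1 stood apart from the other 3 arrays in other cell types. The summed signal of 6 smooth muscle markers was 60.6 on high-calcium replicate 1 and 8.81 on replicate 2, against 9.99 on the standard array, and was 7.13 on the array of open diet. The median signal of replicate 1 was also 1.54 times that of the standard array. The log2 ratios of 3′ over 5′ signal of the Gapdh control probe sets, a check of RNA quality, were -0.44 and -0.44 on the high-calcium arrays, against -0.42 on the standard array. On the array of open diet the Gapdh ratio was -0.54. Those of the actin control probe sets were 0.76 and 0.65 on the high-calcium arrays, against 0.69 on the standard array and 0.52 on the array of open diet.

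No proliferation or mitosis gene passed the test between the diets. In whole fat, fewer dividing cells and less RNA per dividing cell cannot be told apart. limma with its constant prior called 0 of 39 members at an adjusted p under 0.05, against 0 of 18194 genes (0% of all genes). The smallest adjusted p of a member was 0.9999, and 0 members had an unadjusted p under 0.05 (4.94% of all 18194 genes). Among the 29 members above background on all 4 arrays the count was also 0, where 0.182% of all such genes had one. Fitted with trend and robust estimation, limma likewise called 0 members, against 6 of all genes (0.033%). By size, 0 of the 29 members above background were at least 1.5-fold higher on both high-calcium arrays, where 2.11% of all genes above background were. Likewise 0 were at least 1.5-fold lower on both, where 1.12% of all genes were. The median log2 difference between the diets was 0.055 over the 29 members and 0.030 over all genes above background. The 95% interval of a member's difference typically reached 1.40 log2 units, or 2.64-fold, to either side. Differences within that interval were not detectable with these arrays. The interval is not adjusted for the number of genes tested, so larger differences could go undetected too.

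**Figure D1:**
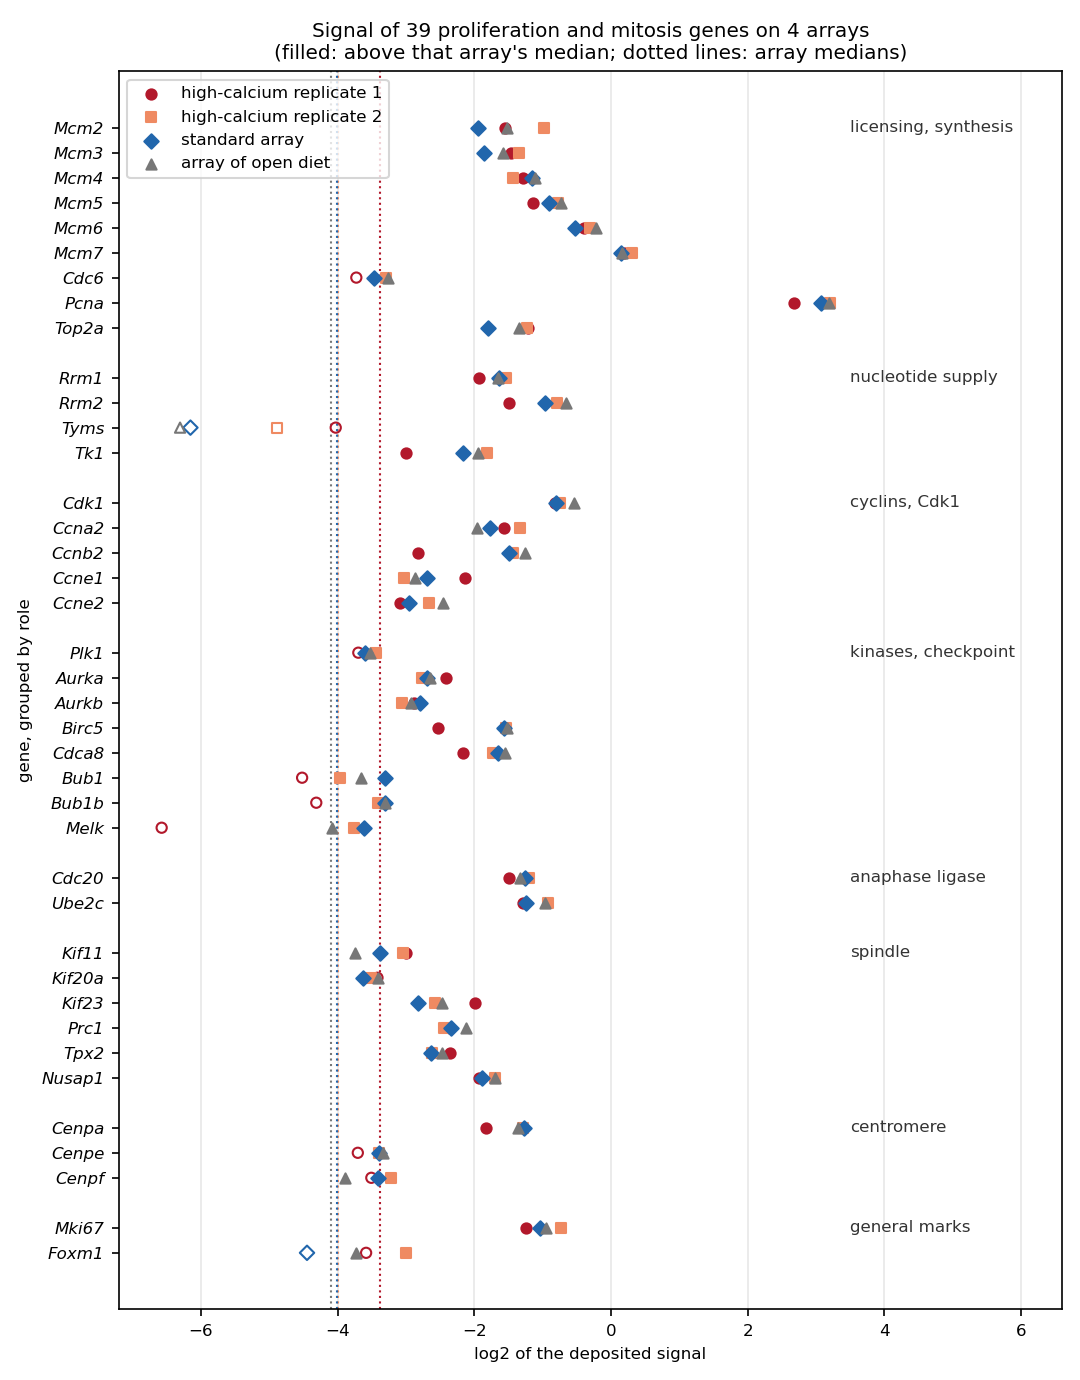
Signal of the 39 measured genes, grouped by role from top to bottom; the x axis is log2 of the deposited signal, each point is 1 array, filled points are above that array's median and dotted lines mark the 4 medians. Most genes lie close together on all arrays, while Ccnb2, Birc5, Tk1, Bub1b and Melk lie to the left on high-calcium replicate 1.

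Over all 4 arrays the median range of a member was 0.51 log2 units, against 0.45 for all genes above background. Over high-calcium replicate 2, the standard array and the array of open diet the median range of a member was 0.30 log2 units, against 0.29 for all genes above background. The signal lay within 0.5 log2 units of the standard array for 20 of 29 members on high-calcium replicate 1 (76% of all genes above background), for 26 on high-calcium replicate 2 (87.5%) and for 28 on the array of open diet (88.6%). On each array the members' share was within 10 percentage points of that of all genes. On high-calcium replicate 1 alone 3 members (Ccnb2, Birc5 and Tk1) were at least 1.5-fold lower than on the standard array, against 5.62% of all genes above background, and 2 (Top2a and Kif23) at least 1.5-fold higher, against 13.1%. On high-calcium replicate 2 alone 0 were lower by that size (5.1% of all genes) and 1, Mcm2, was higher (3.73%). High-calcium replicate 1 had the lowest of the 4 signals for 15 of 29 members, against 25.7% of all genes above background. High-calcium replicate 2 was lowest for 5 (22.7% of all genes), the standard array for 7 (22.9%) and the array of open diet for 2 (28.7%). High-calcium replicate 1 was highest for 6 of 29 members, against 41.7% of all genes, and replicate 2 for 11 (19.6%). The standard array was highest for 2 (19.7%) and the array of open diet for 10 (19%).

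Genes of licensing and DNA synthesis came first in the cycle and included the members with the larger differences of 1 sign. Mcm2, a subunit of the replicative helicase, had log2 signals of -1.55 and -0.99 on high-calcium replicates 1 and 2, against -1.94 on the standard array. Both high-calcium arrays lay above the standard array, as did the array of open diet at -1.53. Its mean was -1.27 ± 0.40 (SD, n = 2) and its difference 0.68 (SE 0.45, limma unadjusted p = 0.250). Mcm3, a further helicase subunit, had -1.46 and -1.35 on the high-calcium arrays, against -1.85 on the standard array and -1.58 on the array of open diet, a difference of 0.45 (SE 0.32). Top2a, the topoisomerase that untangles copied DNA and condenses chromosomes, had -1.21 and -1.23 on the high-calcium arrays, against -1.80 on the standard array. Both nearly coincided here, and the array of open diet, at -1.35, was nearer to them than to the standard array. Its difference was 0.58, with a 95% interval from -0.60 to 1.76 and the smallest p of any member above background (limma unadjusted p = 0.187).

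The other genes of this role gave smaller differences. Mcm6 had -0.40 and -0.31 on the high-calcium arrays, against -0.52 on the standard array and -0.22 on the array of open diet. Mcm7 had 0.18 and 0.31 on the high-calcium arrays, against 0.15 on the standard array and 0.16 on the array of open diet. With the probe sets used, 5 of the 8 genes of this role above background were lowest on the standard array. These were Mcm2, Mcm3, Mcm6, Mcm7 and Top2a, with Mcm7 so by little. A second probe set of Mcm6, also above background, was lowest on high-calcium replicate 1, at -1.95, against -1.27 on the standard array. The second probe set of Mcm2 was lowest on replicate 2. Other probe sets of Mcm7 were lowest on replicate 1 or on the array of open diet. Mcm4 had -1.29 and -1.43 on the high-calcium arrays, against -1.16 on the standard array and -1.11 on the array of open diet, so it lay on the other side, with a difference of -0.20 (SE 0.33). Mcm5 was split, at -1.14 and -0.77 on the high-calcium arrays, against -0.91 on the standard array and -0.74 on the array of open diet. Pcna, the sliding clamp of DNA polymerase, was split too, with 2.69 and 3.20, against 3.08 on the standard array and 3.20 on the array of open diet. The 6 Mcm subunits form 1 ring, and they did not all lie on 1 side of the standard array.

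**Figure D2:**
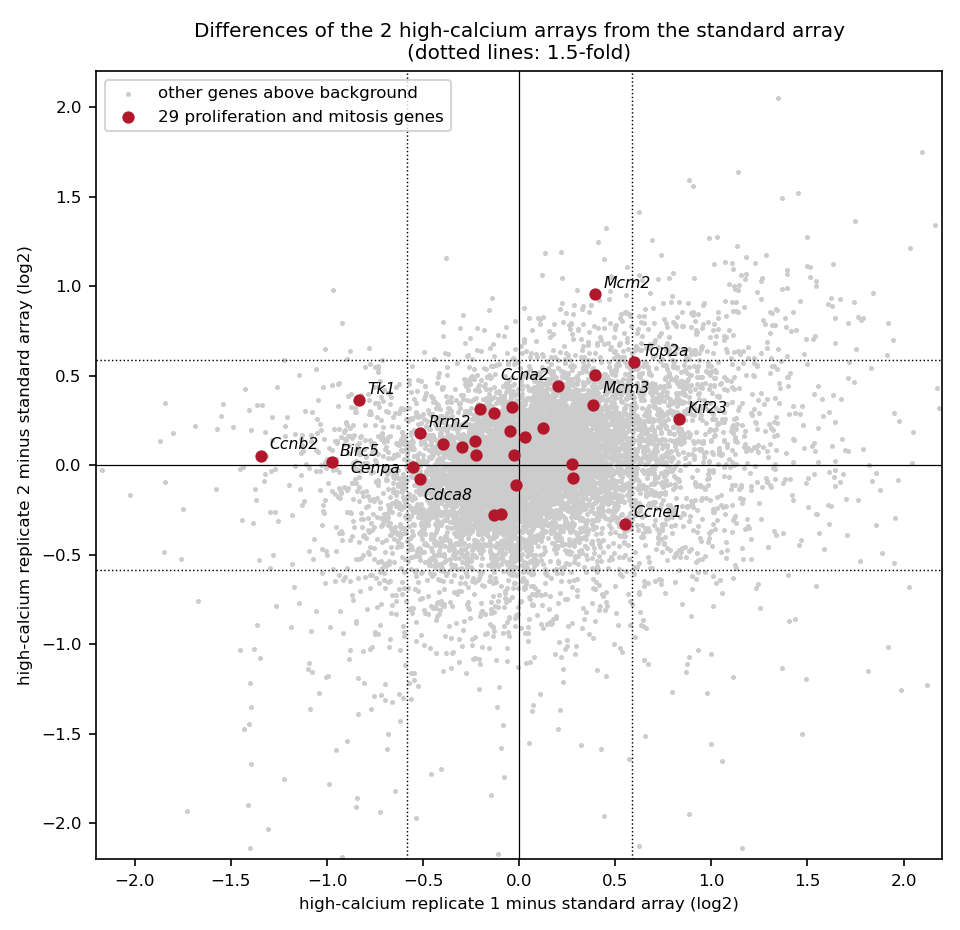
Difference of high-calcium replicate 1 (x axis) and of high-calcium replicate 2 (y axis) from the standard array, in log2 units, for 29 members (red) and all other genes above background (grey); dotted lines mark 1.5-fold, and 39 genes lie outside the axes. No member lies beyond 1.5-fold in the same direction on both axes, and Ccnb2, Birc5 and Tk1 lie far to the left at about the height of 0 or above it.

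With the probe sets used, genes of nucleotide supply were lowest on high-calcium replicate 1 for all 3 members above background. Tk1, the thymidine kinase of the salvage route, had -3.01 and -1.81 on the high-calcium arrays, against -2.17 on the standard array and -1.94 on the array of open diet. The standard array lay between the high-calcium arrays, and replicate 1 was 1.78-fold lower than the standard array. Its mean difference was -0.23 (SE 0.74). Rrm2, the small subunit of ribonucleotide reductase that limits its activity, had -1.49 and -0.79 on the high-calcium arrays, against -0.97 on the standard array and -0.66 on the array of open diet. Rrm1, the large subunit, had -1.93 and -1.53 on the high-calcium arrays, against -1.63 on the standard array and -1.66 on the array of open diet. A second probe set of Rrm2, above background on every array, had -2.65 and -2.62 on the high-calcium arrays. It was lowest on the standard array, at -2.85, and had -2.79 on the array of open diet. Tyms, thymidylate synthase, was not above background on any array with any of its 4 probe sets.

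Among the cyclins and Cdk1, 3 of 5 were lowest on high-calcium replicate 1 with the probe sets used. Ccnb2 was so by a wide margin, Ccne2 and Cdk1 by little. Ccnb2, a cyclin of mitotic entry, had -2.83 and -1.43 on the high-calcium arrays, against -1.49 on the standard array and -1.26 on the array of open diet. Replicate 1 was 2.54-fold lower than the standard array, while replicate 2 differed from it by 0.054 log2 units. The mean difference was -0.64 (SE 0.85). Cdk1, the kinase that cyclin B activates, had -0.83 and -0.74 on the high-calcium arrays, against -0.80 on the standard array and -0.54 on the array of open diet. Its difference of 0.015 (SE 0.32, 95% interval from -1.18 to 1.21) was the smallest of the 29 members above background. The Ccnb2 and Cdk1 windows above both hold CCAAT and CHR words.

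Ccna2, the cyclin of S phase and early mitosis, had -1.57 and -1.33 on the high-calcium arrays, against -1.77 on the standard array and -1.96 on the array of open diet. Its difference was 0.32 (SE 0.35). Relative to the standard array, a second probe set of Ccna2, also above background, lay at -0.61 on replicate 1 and 0.34 on replicate 2. With the probe sets used, the cyclins of the entry into S phase were split. Ccne1 had -2.14 and -3.02 on the high-calcium arrays, against -2.69 on the standard array and -2.87 on the array of open diet. Ccne2 had -3.09 and -2.66 on the high-calcium arrays, against -2.96 on the standard array and -2.45 on the array of open diet. A second probe set of Ccne1, also above background, lay above the standard array by 0.48 on replicate 1 and 0.32 on replicate 2.

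Of the 4 kinases and checkpoint genes above background, 2 were lowest on high-calcium replicate 1. Birc5, or survivin, a subunit of the chromosomal passenger complex, had -2.53 and -1.54 on the high-calcium arrays, against -1.56 on the standard array and -1.52 on the array of open diet. The other 3 arrays lay within 0.038 log2 units of each other, and replicate 1 was 1.97-fold lower than the standard array. Cdca8, or borealin, of the same complex, had -2.17 and -1.73 on the high-calcium arrays, against -1.65 on the standard array and -1.55 on the array of open diet, a difference of -0.30 (SE 0.40). Aurkb, the kinase of this complex, had -2.88 and -3.06 on the high-calcium arrays, against -2.79 on the standard array and -2.93 on the array of open diet, a difference of -0.18 (SE 0.33). Aurka, the kinase of the spindle poles, had -2.42 and -2.77 on the high-calcium arrays, against -2.70 on the standard array and -2.65 on the array of open diet. With the probe sets used, replicate 1 was thus the lowest array in Birc5 and Cdca8 and not in Aurkb. Other probe sets of Cdca8 lay 1.14 and 0.68 log2 units above the standard array on replicate 1. The second probe set of Aurkb had -4.56 on replicate 1, below background, against -3.27 on the standard array. Incenp, of the same complex and counted below among further mitosis genes, had -1.16 and -0.14 on the high-calcium arrays, against -0.15 on the standard array.

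Bub1, Bub1b, Plk1 and Melk were not above background on high-calcium replicate 1 and were above it on the other 3 arrays. Bub1, a checkpoint kinase at the kinetochore, had -4.52 and -3.97 on the high-calcium arrays, against -3.31 on the standard array and -3.66 on the array of open diet. Bub1b, the checkpoint protein BubR1, had -4.31 and -3.41 on the high-calcium arrays, against -3.31 on the standard array and -3.30 on the array of open diet. Melk, a kinase often used as a mark of dividing cells, had -6.57 and -3.76 on the high-calcium arrays, against -3.62 on the standard array and -4.09 on the array of open diet. No fold is given for these, since the signal on replicate 1 is not above background. Plk1, a kinase of mitotic entry, had -3.70 and -3.44 on the high-calcium arrays, against -3.60 on the standard array and -3.53 on the array of open diet. Its signals lay within 0.26 log2 units of each other, and the array median was higher on replicate 1 (-3.38) than on the standard array (-4.00).

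With the probe sets used, both anaphase genes were lowest on high-calcium replicate 1, by a small margin in Ube2c. Ube2c, the ubiquitin-conjugating enzyme of the anaphase-promoting complex, had -1.28 and -0.92 on the high-calcium arrays, against -1.25 on the standard array and -0.96 on the array of open diet. Cdc20, an activator of that complex, had -1.49 and -1.20 on the high-calcium arrays, against -1.26 on the standard array and -1.33 on the array of open diet. In both genes the standard array lay between the high-calcium arrays with these probe sets. A second probe set of Cdc20, above background on every array, had -2.34 and -2.09 on the high-calcium arrays. It had -2.47 on the standard array and its lowest signal, -2.61, on the array of open diet.

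Of the 5 spindle genes above background, 2 were lowest on the standard array and 1 on high-calcium replicate 1. Kif23, a motor of the central spindle, had -2.0 and -2.57 on the high-calcium arrays, against -2.83 on the standard array and -2.48 on the array of open diet, a difference of 0.54 (SE 0.45). Kif11, the motor that separates the spindle poles, had -2.99 and -3.04 on the high-calcium arrays, against -3.38 on the standard array and -3.75 on the array of open diet, a difference of 0.36 (SE 0.32). Both lay above the standard array on both high-calcium arrays, but in Kif11 the array of open diet was the lowest. Tpx2, a spindle assembly factor, had -2.35 and -2.62 on the high-calcium arrays, against -2.63 on the standard array and -2.47 on the array of open diet. Prc1, which bundles the microtubules of the central spindle, had -2.35 and -2.45 on the high-calcium arrays, against -2.34 on the standard array and -2.12 on the array of open diet, a difference of -0.062 (SE 0.32). Nusap1, a microtubule-binding protein, had -1.93 and -1.69 on the high-calcium arrays, against -1.88 on the standard array and -1.70 on the array of open diet. In these 3 genes the largest difference of a high-calcium array from the standard array was 0.27 log2 units, in Tpx2 on replicate 1. Kif20a missed background on replicate 1 alone and had signals from -3.64 to -3.41. Its signal on replicate 1, -3.42, was higher than on the standard array, -3.64. It missed background there because the array median of replicate 1 was higher, at -3.38, than that of the standard array, at -4.00.

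Of the centromere genes, Cenpa, the histone variant that marks centromeres, had -1.83 and -1.28 on the high-calcium arrays, against -1.27 on the standard array and -1.35 on the array of open diet. Its difference was -0.28 (SE 0.44), nearly all of it from replicate 1. Cenpe, a kinetochore motor, ranged from -3.70 to -3.33 and Cenpf from -3.89 to -3.22, and neither was above background on replicate 1. Cdc6, the loader of the Mcm helicase, ranged from -3.73 to -3.26 and was likewise above background on the other 3 arrays only. Cenpf had -3.51 on replicate 1 and was lowest on the array of open diet, at -3.89. The background level was higher on replicate 1, at -3.38, than on the array of open diet, at -4.09.

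Neither general mark passed the test. Mki67, the antigen Ki-67 by which dividing cells are counted in tissue, had -1.25 and -0.73 on the high-calcium arrays, against -1.04 on the standard array and -0.96 on the array of open diet. The standard array lay between the high-calcium arrays, and the difference was 0.055 (SE 0.43, 95% interval from -1.55 to 1.66). Foxm1, a transcription factor of mitotic genes, had -3.58 and -2.99 on the high-calcium arrays, against -4.45 on the standard array and -3.73 on the array of open diet. It was above background on 1 of the 2 high-calcium arrays and not on the standard array, so no fold is given.

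Probe sets of 1 gene often disagreed, which limits each difference above that rests on 1 of several probe sets. Of the members, 12 had more than 1 probe set above background on all 4 arrays. In 4 of these 12 the probe sets had 1 sign on replicate 1, in 6 they had 1 sign on replicate 2, and in 0 they had 1 sign on both. Relative to the standard array, the second probe set of Mcm2 lay at 0.062 on replicate 1 and at -0.094 on replicate 2, while the one used above lay at 0.40 and 0.96. Of 4 probe sets of Mcm3 above background on all 4 arrays, 1 lay at -1.05 on replicate 1 and the others between 0.23 and 0.50. The signal of that 1 on replicate 1, -3.34, was only just above the array median of -3.38. The 3 probe sets of Cdca8 lay at -0.52, 0.68 and 1.14 on replicate 1. The choice of probe set turned the sign of some differences between the diets. Without probe sets that may detect several transcripts, the difference was -0.016 in Mcm2, 0.097 in Mcm4 and 0.57 in Cdca8, all from probe sets above background on all 4 arrays. The other probe sets of Top2a, Prc1 and Cenpa were not above background on all 4 arrays and give no second value. Ccnb2, Birc5 and Tk1 each had 1 probe set, so that no second one could be compared.

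**Figure D3:**
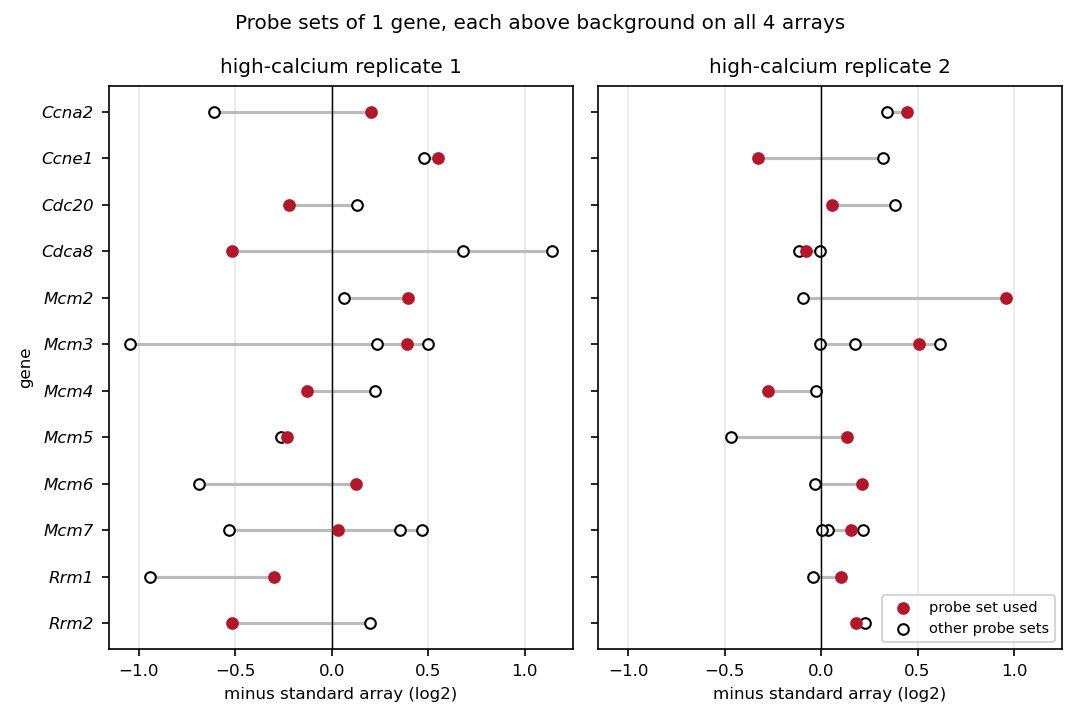
Difference from the standard array, in log2 units, of each probe set of the 12 genes with more than 1 probe set above background on all 4 arrays, for high-calcium replicate 1 (left) and replicate 2 (right); red points are the probe sets used and grey lines join probe sets of a gene. In none of the 12 genes do all points lie on 1 side of 0 in both panels.

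Further cell cycle genes outside the list were counted in the same way, over those above background on all 4 arrays. Of 33 further replication genes, 9 were higher and 7 lower on both high-calcium arrays. Of 28 further mitosis genes 10 were higher and 5 lower, of 18 genes of G1 control 8 were higher and 6 lower, and of 15 cell cycle inhibitors 5 were higher and 4 lower. Among the 29 members 9 were higher on both and 5 lower on both. Over all genes above background the shares were 35.4% higher and 27.1% lower. As over all genes, more genes were higher than lower in each list. Whether the shares of a list differ from those of all genes was not tested. limma called 0 of 121 measured genes of these lists at an adjusted p under 0.05, with the constant prior and with trend and robust estimation. At an unadjusted p under 0.05 there was 1 of 121, against 4.94% of all genes. This was Kif4, a chromosome-bound motor named here after its value was seen. It was at least 1.66-fold higher on the high-calcium arrays than on the standard array, where it was not above background, with limma's adjusted p = 0.978. For this bound the high-calcium mean of -3.27 was set against the background level of the standard array, where Kif4 itself had -5.33. The background level was -3.38 and -3.99 on the high-calcium arrays, against -4.00 on the standard array. The bound takes no account of this gap, and the mean lay little above the background level of replicate 1. On the array of open diet it had -3.49.

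At least 1.5-fold higher on both high-calcium arrays were 4 of the 94 genes of these lists above background, against 2.11% of all genes. None of them was at least 1.5-fold lower on both, against 1.12% of all genes. E2f4, an E2F factor of resting cells, had -2.78 and -2.79 on the high-calcium arrays, against -3.89 on the standard array and -3.48 on the array of open diet. On the standard array it lay just above the background level of -4.00. Fen1, the nuclease that trims Okazaki fragments, had 0.61 and 0.13 on the high-calcium arrays, against -0.73 on the standard array and -0.57 on the array of open diet. Its difference was 1.10, and 0.60 with the mean of its 2 probe sets. Gins2, of the replicative helicase, had -0.97 and -1.31 on the high-calcium arrays, against -1.94 on the standard array and -1.52 on the array of open diet. The difference of Gins2 was 0.81, and 0.42 without probe sets that can share transcripts. Ncapd2, a subunit of condensin, had -2.61 and -2.60 on the high-calcium arrays, against -3.45 on the standard array and -2.61 on the array of open diet. In Ncapd2 the standard array alone was apart.

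Smaller differences of 1 sign stood in both directions. In the inhibitor list Ccng1, a target of p53, had 3.36 and 3.40 on the high-calcium arrays, against 2.91 on the standard array, and Cdkn1a, the kinase inhibitor p21, had 1.39 and 1.58 on the high-calcium arrays, against 1.12 on the standard array. Wee1, the kinase that holds Cdk1 inactive, had -2.45 and -2.52 on the high-calcium arrays, against -2.02 on the standard array, and Cdkn1c, the inhibitor p57, had -1.96 and -2.12 on the high-calcium arrays, against -1.60 on the standard array. Of the other named genes, Cdc45, Ndc80, Cdc25b, Cdca2, E2f1 and Ccnd3 had positive differences from 0.30 to 0.90, while Dbf4 and Fbxw7 had -0.50 and -0.29. None of these passed limma's test.

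High-calcium replicate 1 was the lowest array for 13 of 28 further mitosis genes, against 25.7% of all genes, and the median difference of these 28 genes on it was -0.11. For further replication genes it was lowest for 10 of 33, for G1 control for 3 of 18 and for inhibitors for 1 of 15.

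Markers of other cell types also stood apart on high-calcium replicate 1. All 10 macrophage markers were above background on every array and all 10 were lowest on high-calcium replicate 1. Their summed signal was 26.7 and 50.3 on the high-calcium arrays, against 49.4 on the standard array and 52.8 on the array of open diet. The median difference of the 10 markers from the standard array was -0.96 on replicate 1 and 0.017 on replicate 2. Smooth muscle, B-cell and T-cell markers were high on replicate 1. The summed signal of 5 B-cell markers was 2.57 and 0.28 on the high-calcium arrays, against 0.49 on the standard array and 0.25 on the array of open diet, and only Cd79b was above background on all 4. The summed signal of 6 T-cell markers was 1.70 and 0.90 on the high-calcium arrays, against 0.89 on the standard array and 0.66 on the array of open diet, with Cd4 above background on none. All 5 mesothelium markers were above background on every array and lowest on the standard array. Their summed signal was 2.45 and 1.83 on the high-calcium arrays, against 1.10 on the standard array and 2.02 on the array of open diet. Of 6 endothelial markers, all above background, 4 were highest on the standard array. The summed signal of these 6 was 3.11 and 2.15 on the high-calcium arrays, against 3.12 on the standard array and 2.27 on the array of open diet. Germ cell markers were mixed: the summed signal of 7 was 5.35 and 4.46 on the high-calcium arrays, against 5.73 on the standard array and 4.26 on the array of open diet. Of these, Prm1, Prm2 and Tnp1 were highest on replicate 1 and next on the standard array, Sycp3 was lowest on replicate 1, Tnp2 was above background on the standard array alone, and Ccna1 and Dazl on replicate 1 alone. The summed signal of 5 epididymis markers was 9.86 and 0.14 on the high-calcium arrays, against 0.25 on the standard array and 0.13 on the array of open diet. Nearly all of it on replicate 1 came from Defb42 (log2 signal 3.25), and Adam7, Lcn5 and Lcn8 were above background on no array. The part of these cell types in the values of the proliferation genes was not tested.

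**Figure D4:**
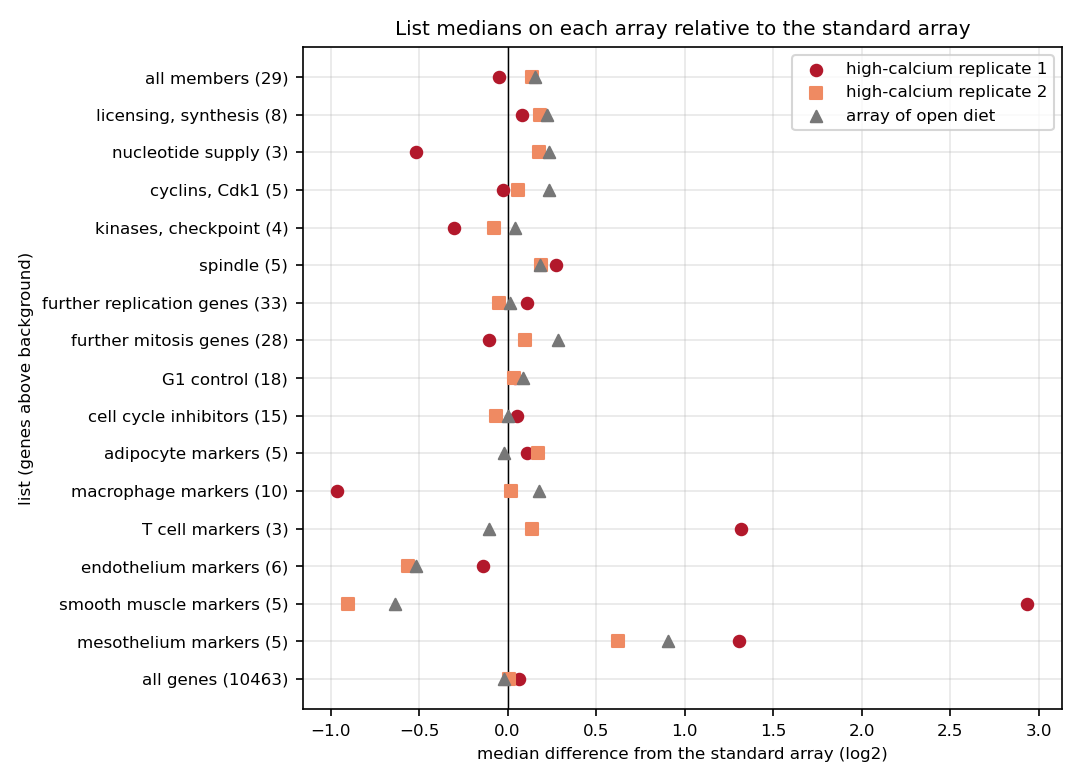
Median difference from the standard array, in log2 units, over the genes of each list above background (their number in brackets), for high-calcium replicate 1, high-calcium replicate 2 and the array of open diet. On replicate 1 the macrophage markers lie lowest, at -0.96, and the smooth muscle markers highest, at 2.94. Every other list shown lies between them there, also the other marker lists and all genes.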

How the data were processed

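Total RNA of epididymal fat was labelled with biotin and measured on 4 Affymetrix mouse genome arrays, per the labels. The authors deposited 1 linear intensity for each of 45101 probe sets. The submitters' processing notes list RMA and no version of it, but the values are not log2 and the lowest value of each array is its median divided by 100. Their scaling is unknown.

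Intensities were log2 transformed with no added constant. The platform annotation gave 34958 probe sets 1 gene symbol, 932 several and 9211 none, and the 34754 that matched a current gene record kept their symbols. Differences, high-calcium minus standard, were tested on all 18194 genes with limma 3.58.1 (lmFit, then eBayes; R 4.3.3), and two-sided p-values were adjusted by Benjamini-Hochberg at a threshold of 0.05. Residual degrees of freedom were 1, or 2.38 after moderation. The fit assumes that the lone standard array varies like the high-calcium arrays, and its p-values measure only the spread between these arrays. The fit was also run on simulated data that gave the standard array the same spread as the high-calcium arrays. That run could not check the assumed equal spread.

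The members, the further lists and the tests were chosen with earlier results of these data known. Full statistics go to the up to 6 members of each direction above background with the largest smaller-of-2 difference of 1 sign, and values to up to 4 genes of each further list by the same measure. Statistics of Tk1, Ccnb2, Cdk1 and Mki67, and the 5 promoter windows printed, were added after their values were seen. The counts past each threshold, the median over members and the differences of the 27 genes named by this rule were recomputed with the mean over a gene's probe sets, without probe sets of shared transcripts, with a choice of probe set over 3 arrays, quantile normalization, centring on array medians, trend with robust estimation, filters on dim genes, 2-fold, and leaving out each high-calcium array.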

Additional observations from a re-analysis of the deposited data

How the results depend on the processing

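The count of members past limma's adjusted threshold was 0 under all 7 alternatives that gave a test, although centring each array on its median called 96 genes in all. The counts at least 1.5-fold higher and lower on both high-calcium arrays also stayed at 0 with other choices of probe set, with quantile normalization, after centring, at 2-fold and with background at 2 times the array median. With no filter on dim genes they were 2 higher and 1 lower. With 1 high-calcium array left out, which leaves a value with no test, the count higher was 1 to 2 and the count lower 0 to 3, and replicate 1 alone gave the 3 lower genes. The median difference of members above background was -0.048 with replicate 1 alone and 0.14 with replicate 2 alone. It was -0.036 after quantile normalization, and -0.26 after centring, where that of all genes above background was -0.29. The sign of 9 named genes turned. With the mean of all probe sets Cdca8 was 0.18, Prc1 0.24, Cenpa 0.60, Dbf4 0.64, Ccnd3 -0.42 and Cdkn1a -0.36. Without probe sets that can share transcripts Top2a was -0.074, Mcm2 -0.016, Mcm4 0.097 and Cdca8 0.57. Mcm4 was 0.097 also with the probe set chosen over 3 arrays, and Ccnd3 was -0.013 after centring. Each of the values for Top2a, Prc1, Cenpa, Dbf4 and Cdkn1a, and that of Ccnd3 with the mean, draws on a probe set not above background on all 4 arrays. For the others the cause was not tested. Counts of lowest and highest arrays, marker sums and the further lists were computed with 1 setting. No paired analysis was possible because the standard diet has 1 labelled array and its label carries no replicate number.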
